A study of Rattus norvegicus with 6 samples.

Results

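Ion channel genes were examined in RNA retrieved from GH4C1 cells with oligonucleotide pool A or pool B. They were chosen by name, from the gene families of voltage-gated calcium, potassium and sodium channels, HCN, TRP and CLC channels, ryanodine and inositol trisphosphate receptors and the sodium leak channel Nalcn, and by a minimum of 10 counts in at least 3 of the 6 libraries. Of 32883 genes in the table, 175 matched by name and 77 of these met the minimum. One of the 77, Trpc4ap, encodes a protein that binds a TRP channel and is no channel subunit itself, so 76 encode channel subunits. GH4C1 is an established, clonal rat pituitary line of the lactotroph and somatotroph lineage, labelled wild type. All cells were treated with psoralen, which crosslinks paired nucleic acid strands, in a study designed to find RNAs bound directly to the long noncoding RNA Neat1. Oligo pool A and oligo pool B were represented by 3 libraries each, and nothing in the labels says that they came from separate cultures, so p-values measure the spread between these libraries. The labels do not say what the oligonucleotides of a pool match or which pool, if either, is a control. Input RNA was not analysed here, so a level combines how much of a transcript the cells held with how much of it a pool retrieved, and in such bulk RNA fewer cells with a transcript and less of it per cell cannot be told apart.

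Pituitary lactotrophs and somatotrophs are excitable. They fire spontaneous action potentials in which calcium enters through voltage-gated channels and releases hormone, while potassium channels, many of them opened by calcium itself, set the length and spacing of the spikes. Hypothalamic thyrotropin-releasing hormone acts on these cells by releasing calcium from stores through inositol trisphosphate receptors and by closing ERG potassium channels, a response much studied in GH cell lines.

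Total counts ran from 1826390 to 3685899 per library. Levels are given as CPM, counts per 1000000 counts of a library, and 10 counts correspond to between 2.71 and 5.48 CPM. The test also scales each library by a TMM factor, from 0.900 to 1.06, which CPM leave out. Overlap of ranges is stated in CPM and can change with these factors. With them Hcn4 and Kcnk1 overlapped between the pools, while Cacnb3 and Itpr1 did not. A count of 0 allows up to 3 counts, or 0.814 to 1.64 CPM, and these floors cover counting error only. Differences are given as log2 ratios, meaning the log2 fold change of pool A over pool B fitted by edgeR, whose quasi-likelihood p-values carry the Benjamini-Hochberg adjustment for all 11582 genes tested. Lineage markers of the cell line were present: Gh1, which encodes growth hormone, had 342 to 634 counts in the 6 libraries, Prl, which encodes prolactin, 909 to 2578, and the lineage factor Pou1f1 398 to 666. Of 8 markers of other pituitary hormone cells, Tshb and Fshb were at 0 in every library, and Lhb and Tbx19 reached 10 counts in 3 libraries or more. The summed CPM of these 8 was 14.6 to 26.04 with pool A and 51.5 to 55.6 with pool B. Of 3 markers of folliculostellate or stem cells Sox2 was the only one to reach 10 counts in 3 libraries, with a summed CPM of 42.6 to 51.8 with pool A and 19.1 to 32.2 with pool B. The sums were 27.4 to 32.3 and 24.5 to 31.8 for 6 immune, endothelial and fibroblast markers, and 61.7 to 83.1 and 84.9 to 93.4 for 6 markers of neurons and glia. The 12 endocrine markers summed to 7837 to 8779 and 30627 to 37716 CPM, of which Chgb, a granule protein gene, made up 3742 and 31688 CPM on average. Chgb was higher with pool B (log2 ratio -2.94), while Prl, Pitx1, Chga and Scg2 were higher with pool A (0.83, 1.22, 0.63 and 0.77). The part of these markers in the differences below was not tested.

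For most channel transcripts the difference between the pools did not pass the test, and of those that passed it more were higher with pool B than with pool A. Of the 77 genes, 75 passed edgeR's filter on low counts and were tested. At an adjusted p under 0.05, 18 of them were higher with pool B, 6 were higher with pool A, and 51 did not pass. The called share was 32% (24 of 75), against 40.6% of all genes tested. By direction, 8% were higher in pool A and 24% in pool B, against 18.6% and 22.0% of all genes. CPM ranges of the pools did not overlap for 27 of the 75 genes (36%), against 49.1% of all genes. The median log2 ratio was -0.10 for the channel genes and 0.02 for all genes, and the median size was 0.39 and 0.60. The median total over the 6 libraries was 459 counts for the channel genes and 432 for all genes. Among genes with 10 counts in all 6 libraries, 21 of 64 channel genes (32.8%) and 44.2% of 9272 genes were called. For 5 genes (Cacna1f, Cacng8, Itpr2, Kcng2 and Kcns1) all 3 pool B libraries reached 10 counts and fewer of pool A did, so pool B alone met the minimum, and the first 3 of these were among those called higher with pool B. For 2 genes (Kcna5 and Kcnab1) pool A alone met it, and neither was called. These counts describe the genes that met the minimum and say nothing of the 98 that did not.

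The number of calls and their split between the pools depended on how libraries were scaled, while 0 of the 24 called genes changed direction in any fit. Calls in favour of pool A made up 25% of the channel calls with TMM scaling, 12% (3 of 25) with total counts alone and 40.9% (9 of 22) with upper-quartile factors. Over all genes these shares were 45.8%, 37.2% and 52.8%. The median over all genes moved from 0.02 to -0.12 with total counts alone and to 0.12 with upper-quartile factors, and the channel median moved from -0.10 to -0.24 and to 0.00071. Calls in favour of pool A numbered 3 in place of 6 in the fits lacking pool A replicate 1 or pool B replicate 3. Of the 24 calls, 11 held in all 15 other fits made, 3 of them higher with pool A (Cacna2d1, Kcnn4 and Scn3b) and 8 higher with pool B (among them Kcnn1, Kcna4, Hcn3, Trpm2, Clcn7, Kcnh4 and Scn8a). These 11 were also the ones that passed a test against a 1.5-fold change, so the loss of the other 13 calls in that stricter test is not repeated for each gene. Of the 51 genes not called, 7 passed in at least 1 other fit, and 23 had a ratio of the other sign when 1 library was left out, so no direction is read from them.

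**Figure D1:**
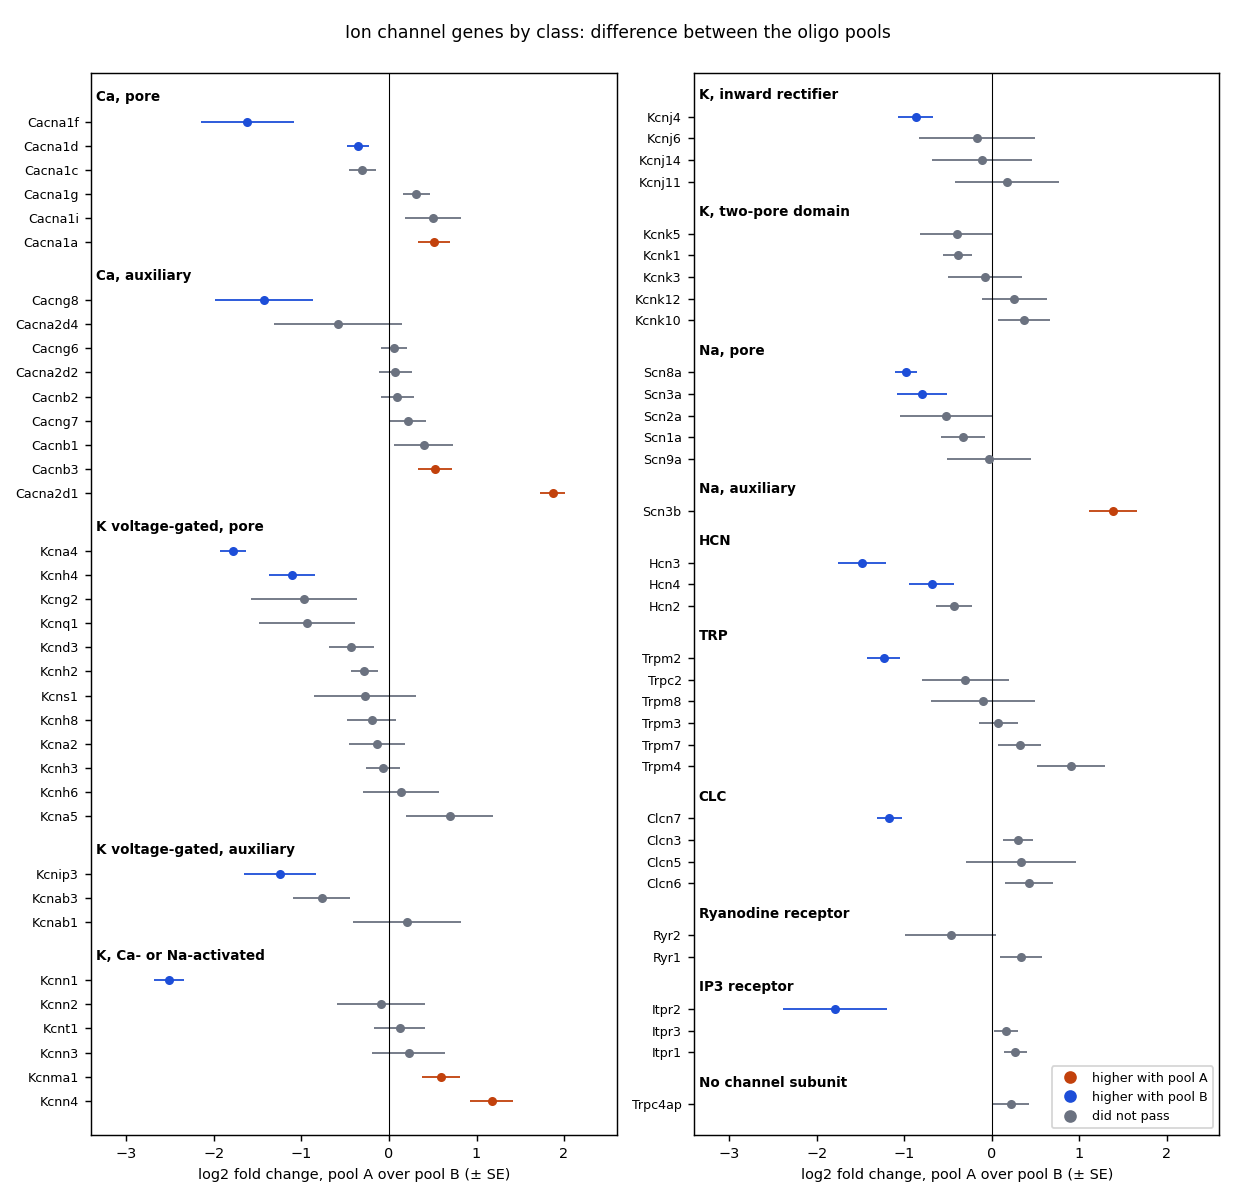
Log2 fold change of pool A over pool B for 70 of the 75 channel genes tested, by class; points are edgeR estimates from 3 libraries a pool, bars are standard errors, and colours give the call at an adjusted p under 0.05. Kcnn1 lies farthest to the left at -2.51 and Cacna2d1 farthest to the right at 1.87, and 57 of the 70 points lie between -1 and 1.

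**Figure D2:**
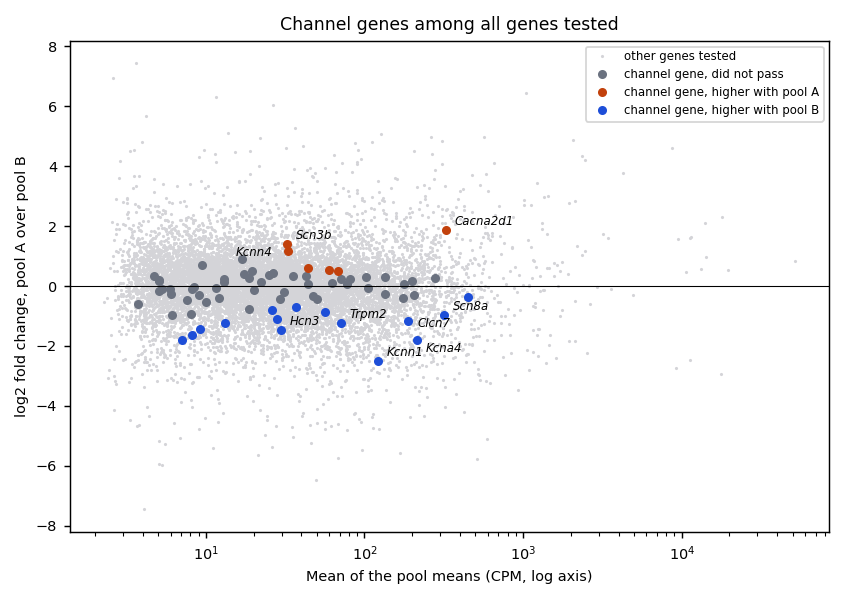
Log2 fold change of pool A over pool B against the mean of the 2 pool means in CPM (log axis), with 70 channel genes in colour over all 11582 genes tested in grey. The channel genes lie between -2.51 and 1.87, within the range of -7.45 to 7.44 of all genes.

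Voltage-gated calcium channels carry the calcium that triggers hormone release. Each has a pore-forming alpha1 subunit, encoded by a Cacna1 gene, with auxiliary beta and alpha2delta subunits that bring it to the membrane and shape its opening. Of 10 pore genes in the table, 6 met the minimum, and of these Cacna1a was higher with pool A while Cacna1d and Cacna1f were higher with pool B. The called share of the 6 was 50%, against 40.6% of all genes. Cacna1d, which encodes an L-type pore of endocrine and neuronal cells, had 369, 341 and 403 CPM with pool A and 571, 491 and 511 CPM with pool B. The groups did not overlap, and the log2 ratio was -0.36 ± 0.13 (SE) at an adjusted p of 0.0254 by edgeR. The call was lost with upper-quartile factors (adjusted p 0.111), without the count filter (0.0510) and without pool A replicate 1, 2 or 3 or pool B replicate 1 or 3 (0.0549 to 0.120). Cacna1c, the L-type pore best known from heart and vessel muscle, had 170, 136 and 211 CPM with pool A and 221, 278 and 207 CPM with pool B. The ranges overlapped, since pool A replicate 3 was above pool B replicate 3, and the log2 ratio of -0.30 ± 0.15 (SE) did not pass (edgeR adjusted p 0.113), although it passed with total counts alone (0.0377).

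Cacna1a, which encodes the P/Q-type pore of nerve terminals, had 76.0, 81.5 and 72.2 CPM with pool A and 63.4, 56.9 and 57.1 CPM with pool B. All pool A libraries were above all pool B libraries, by a log2 ratio of 0.52 ± 0.18 (SE) at an adjusted p of 0.0239 by edgeR. That call was lost with total counts alone (0.116) and without pool A replicate 1 or 2 or pool B replicate 2 or 3 (0.0525 to 0.0899). Cacna1g encodes a T-type pore, which opens near the resting potential, and had 168, 122 and 136 CPM with pool A and 117, 143 and 122 CPM with pool B, with overlapping ranges. Its log2 ratio was 0.31 ± 0.16 (SE) at an adjusted p of 0.119 by edgeR, and the adjusted p was 0.0344 with upper-quartile factors. Cacna1f, an L-type pore best known from the retina, was the least counted of the 3 called pore genes, with 19, 6 and 11 counts in pool A and 22, 26 and 44 in pool B. Its log2 ratio was -1.62 ± 0.53 (SE) at an adjusted p of 0.0165 by edgeR, and the call was lost without pool A replicate 2 (0.0719) or pool B replicate 3 (0.107). The T-type pore gene Cacna1h was at 0 in every library.

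Of 16 auxiliary calcium channel genes, 11 met the minimum and 9 were tested, of which 2 were higher in pool A and 1 in pool B. Their called share was 33.3%, against 40.6% of all genes. Cacna2d1 (ENSRNOG00000033531), whose product is an alpha2delta subunit and the binding site of gabapentin, differed most. It had 520, 533 and 449 CPM with pool A and 160, 153 and 145 CPM with pool B, so that the lowest pool A library was well above the highest pool B library. The means were 501 ± 45.2 CPM and 152 ± 7.51 CPM (SD, n = 3 each), and the log2 ratio was 1.87 ± 0.14 (SE) at an adjusted p of 1.61e-11 by edgeR. Leaving out a library moved the log2 ratio only between 1.81 and 2.00. The paralog Cacna2d2 had 66.2, 60.9 and 101 CPM with pool A and 87.9, 72.8 and 76.8 CPM with pool B, with overlapping ranges and a log2 ratio of 0.07 ± 0.19 (SE, edgeR adjusted p 0.797). Within a library, scaling cancels in the ratio of counts of a pair of genes. There were 1.41, 1.56 and 1.11 counts of Cacna2d1 per count of Cacna1d with pool A, and 0.279, 0.311 and 0.283 with pool B. This ratio was chosen after its values were seen and compares the pools, not the levels of the genes.

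The beta subunit gene Cacnb3 had 65.1, 61.3 and 78.4 CPM with pool A and 63.7, 43.3 and 48.8 CPM with pool B. In CPM the ranges overlapped through pool B replicate 1, and with the TMM factors they did not. The log2 ratio was 0.53 ± 0.20 (SE) at an adjusted p of 0.0331 by edgeR. The call was lost with total counts alone (0.135) and without pool A replicate 1 or 3 or pool B replicate 2 or 3 (0.0559 to 0.148). Cacnb1 and Cacnb2 had log2 ratios of 0.40 ± 0.34 and 0.10 ± 0.19 (SE) and did not pass. The paralogs Cacng6, Cacng8 and Cacng7 lie close together in the table. Cacng8, which encodes an auxiliary protein of AMPA-type glutamate receptors, had 4, 16 and 21 counts with pool A and 49, 29 and 22 with pool B, and a log2 ratio of -1.43 ± 0.56 (SE, edgeR adjusted p 0.0417). That call was lost with upper-quartile factors (0.0599), with the replicate number as a block (0.0548), and without pool A replicate 1 or pool B replicate 1 or 2 (0.104 to 0.186). Cacng6 and Cacng7 had 0.06 ± 0.15 and 0.22 ± 0.21 (SE) and did not pass. Cacnb4 and Cacng4, with at most 16 and 18 counts in a library, met the minimum but were not tested.

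Voltage-gated potassium channels end the action potential and set the resting level between spikes. Of 38 pore genes, 16 met the minimum, and 5 of them were higher with pool B and 0 with pool A in edgeR's test. That is 31.3% of the 16, against 40.6% of all genes called and 22.0% higher with pool B. The unadjusted p was under 0.05 for these 5 alone, and DESeq2 called 4 and limma-voom 5, all higher with pool B. Kcna4 (ENSRNOG00000004918), which encodes a rapidly inactivating A-type channel, had 89.5, 91.0 and 86.6 CPM with pool A and 297, 322 and 398 CPM with pool B. The pool A libraries lay close together and far under every pool B library. The log2 ratio was -1.78 ± 0.15 (SE) at an adjusted p of 1.42e-10 by edgeR.

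Kcnh4, of the ELK group of the ether-a-go-go family, had 17.6, 15.4 and 16.9 CPM with pool A and 47.0, 33.9 and 38.2 CPM with pool B. Its log2 ratio was -1.11 ± 0.26 (SE) at an adjusted p of 0.0012 by edgeR. Kcnh2, the ERG channel gene of the same family, had 122, 90.6 and 131 CPM with pool A and 171, 156 and 134 CPM with pool B. Its CPM ranges did not overlap, but pool A replicate 3 and pool B replicate 3 were almost level. The log2 ratio of -0.28 ± 0.16 (SE) did not pass (edgeR adjusted p 0.161).

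The 11 pore genes that did not pass had log2 ratios from -0.97 (Kcng2) to 0.69 (Kcna5), and Kcng2 was at -1.57 without pool A replicate 1. The ether-a-go-go gene Kcnh1 was at 0 in every library. Of 12 auxiliary genes of these channels, 3 met the minimum. Kcnip3, whose product binds Kv4 channels and is also known as the transcriptional repressor DREAM, had 24, 11 and 35 counts with pool A and 60, 42 and 37 with pool B. Its CPM ranges did not overlap, and its log2 ratio was -1.24 ± 0.41 (SE, edgeR adjusted p 0.0170). That call was lost without pool A replicate 1 or 2 or pool B replicate 1 or 2 (0.0509 to 0.0842). The beta subunit gene Kcnab3 had 14.7, 12.3 and 11.9 CPM with pool A and 30.0, 24.1 and 19.3 CPM with pool B, a log2 ratio of -0.77 ± 0.32 (SE) that did not pass (edgeR adjusted p 0.0607). It passed with total counts alone (0.0273) and without pool B replicate 3 (0.0473).

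Potassium channels opened by intracellular calcium couple each spike to the next, and their genes were called in both directions. Of 8 genes for the pores of calcium- or sodium-activated channels, 6 met the minimum, of which 2 were called higher in pool A and 1 in pool B. The called share was 50%, against 40.6% of all genes. By direction the shares were 33.3% and 16.7%, against 18.6% and 22.0%. Kcnn1 (ENSRNOG00000029264), a small-conductance (SK) channel gene, had the largest difference of all channel genes tested. It had 28.2, 33.2 and 38.9 CPM with pool A and 227, 180 and 221 CPM with pool B, with means of 33.4 ± 5.35 CPM and 209 ± 25.5 CPM (SD, n = 3 each). The lowest pool B library was several times the highest pool A library, and the log2 ratio was -2.51 ± 0.17 (SE) at an adjusted p of 2.48e-12 by edgeR. It stayed between -2.62 and -2.40 when any library was left out. Its directly adjacent rows in the table, Ccdc124 and Arrdc2, were also higher with pool B, with log2 ratios of -1.08 and -0.73.

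Kcnn4, the intermediate-conductance channel gene of the same family, went the other way, with 52.4, 39.9 and 39.5 CPM with pool A and 23.9, 23.0 and 18.2 CPM with pool B. The groups did not overlap, and the log2 ratio was 1.17 ± 0.25 (SE, edgeR adjusted p 0.000384). Kcnn4 had 1.86, 1.2 and 1.02 counts per count of Kcnn1 with pool A and 0.105, 0.128 and 0.0821 with pool B, which no scaling of the libraries can alter; the pair was chosen after its values were seen. Kcnn2 and Kcnn3, SK genes as well, had log2 ratios of -0.09 ± 0.50 and 0.23 ± 0.42 (SE) and did not pass, with at most 29 and 62 counts in a library. Leaving out pool B replicate 1 put Kcnn3 at 0.86, and leaving out replicate 3 of that pool put it at -0.079. Kcnma1, which encodes the large-conductance BK channel that shapes bursting in pituitary cells, had 51.8, 48.2 and 51.1 CPM with pool A and 31.0, 42.2 and 38.6 CPM with pool B. Its groups did not overlap, with a log2 ratio of 0.59 ± 0.22 (SE, edgeR adjusted p 0.0300). The call was lost with total counts alone (0.113) and without pool A replicate 1 or 2 or pool B replicate 1 or 3 (0.0561 to 0.126). The sodium-activated channel gene Kcnt1 had 0.12 ± 0.29 (SE) and did not pass.

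Inward rectifiers and tandem-pore-domain channels carry resting potassium current. Of 15 inward rectifier genes, 4 met the minimum and 1 was called (25%, against 40.6% of all genes). Kcnj4, which encodes a strong inward rectifier, had 38.3, 35.6 and 38.9 CPM with pool A and 88.6, 75.6 and 63.6 CPM with pool B. Every pool B library was well above pool A, and the log2 ratio was -0.87 ± 0.20 (SE, edgeR adjusted p 0.000828). The next row before it in the table, Csnk1e, was also higher with pool B, with a log2 ratio of -1.33. Kcnj11, the pore gene of the ATP-sensitive channel, and Kcnj6, a G protein-gated channel gene, had log2 ratios of 0.17 ± 0.59 and -0.17 ± 0.66 (SE) on at most 18 and 26 counts in a library, which did not pass. Kcnj3 was at 0 in every library, and Kcnj12 had 2 counts in all.

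Of 14 genes for tandem-pore-domain channels, 5 met the minimum. By edgeR, DESeq2 and limma-voom alike 0 passed, and 1 had an unadjusted p under 0.05 in edgeR's test. That gene, Kcnk1, a weak inwardly rectifying background channel, had 174, 136 and 113 CPM with pool A and 177, 246 and 197 CPM with pool B. In CPM the groups did not overlap, although pool A replicate 1 nearly reached pool B replicate 1, and with the TMM factors they overlapped. The log2 ratio was -0.39 ± 0.17 (SE, edgeR adjusted p 0.0654). It passed with total counts alone (0.0129), without a count filter (0.0455), among genes with 10 counts in every library (0.0494), and without pool A replicate 1 (0.0139) or pool B replicate 1 (0.0342). The other 4 had log2 ratios between -0.40 (Kcnk5) and 0.37 (Kcnk10), among them the acid-sensitive channel gene Kcnk3 at -0.08 ± 0.42 (SE).

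Voltage-gated sodium channels open first in the spike. Of 10 pore genes, 5 met the minimum, 2 of them higher with pool B (40% called, against 40.6% of all genes). Scn8a (ENSRNOG00000005309), a channel gene of axon initial segments, had 205, 189 and 201 CPM with pool A and 448, 435 and 420 CPM with pool B. Both groups were tight and far apart, with means of 199 ± 8.25 CPM and 434 ± 14.3 CPM (SD, n = 3 each). The log2 ratio was -0.98 ± 0.13 (SE) at an adjusted p of 4.78e-07 by edgeR. Its adjacent row Slc4a8 had a similar log2 ratio of -0.99. Scn3a had 15.2, 23.3 and 15.1 CPM with pool A and 34.1, 37.2 and 31.8 CPM with pool B, a log2 ratio of -0.80 ± 0.28 (SE, edgeR adjusted p 0.0250). The call was lost with upper-quartile factors (0.0520) and without pool A replicate 1 or 3 or pool B replicate 2 (0.0628 to 0.116).

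Scn1a, Scn2a and Scn9a did not pass, with log2 ratios of -0.33 ± 0.25, -0.53 ± 0.52 and -0.03 ± 0.48 (SE). Scn2a had 16, 15 and 61 counts with pool B, and without pool B replicate 3 its log2 ratio was 0.36, of the other sign. Scn1a, Scn2a, Scn3a and Scn9a are close paralogs within 8 consecutive rows of the table, and reads that match more than 1 of them may have been counted in ways not given in the sources used here. The only auxiliary gene to meet the minimum of the 4 in the table, Scn3b (ENSRNOG00000057221), was called in the other direction from Scn8a and Scn3a. It encodes a beta subunit that modulates channel opening and surface level, and had 46.4, 54.6 and 36.1 CPM with pool A and 23.5, 21.9 and 12.9 CPM with pool B. All pool A libraries were higher, by a log2 ratio of 1.39 ± 0.27 (SE, edgeR adjusted p 0.000162). There were 4.43, 3.47 and 5.57 counts of Scn8a per count of Scn3b with pool A and 19.1, 19.9 and 32.6 with pool B, a pair chosen after its values were seen. Nalcn, the leak channel that depolarises resting pituitary cells, had between 2 and 15 counts in a library and did not meet the minimum.

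HCN channels carry the pacemaker current that opens on hyperpolarisation. Of the 4 genes, 3 met the minimum, each with every pool B library above every pool A library in CPM. Across all genes, CPM ranges were apart, in either direction, for 49.1%. Hcn3 had 12.5, 14.2 and 17.3 CPM with pool A and 52.8, 33.4 and 48.0 CPM with pool B, a log2 ratio of -1.48 ± 0.27 (SE, edgeR adjusted p 6.38e-05). Hcn4 had 19.3, 34.0 and 27.3 CPM with pool A and 35.1, 52.0 and 56.0 CPM with pool B, so that pool A replicate 2 nearly met pool B replicate 1. With the TMM factors of these libraries, 0.900 and 1.05, Hcn4 overlapped between the pools. Its log2 ratio was -0.69 ± 0.26 (SE, edgeR adjusted p 0.0355), and the call was lost with upper-quartile factors (0.0757), with DESeq2 (0.0575) and without pool A replicate 1 or 3 or pool B replicate 2 or 3 (0.0882 to 0.189). Hcn2 had 39.1, 34.8 and 46.7 CPM with pool A and 54.5, 62.4 and 62.8 CPM with pool B. Its log2 ratio of -0.43 ± 0.20 (SE) did not pass (edgeR adjusted p 0.0940), and passed with total counts alone (0.0348). Counts of Hcn3 per count of Hcn2 were 0.319, 0.409 and 0.369 with pool A and 0.969, 0.535 and 0.765 with pool B.

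**Figure D3:**
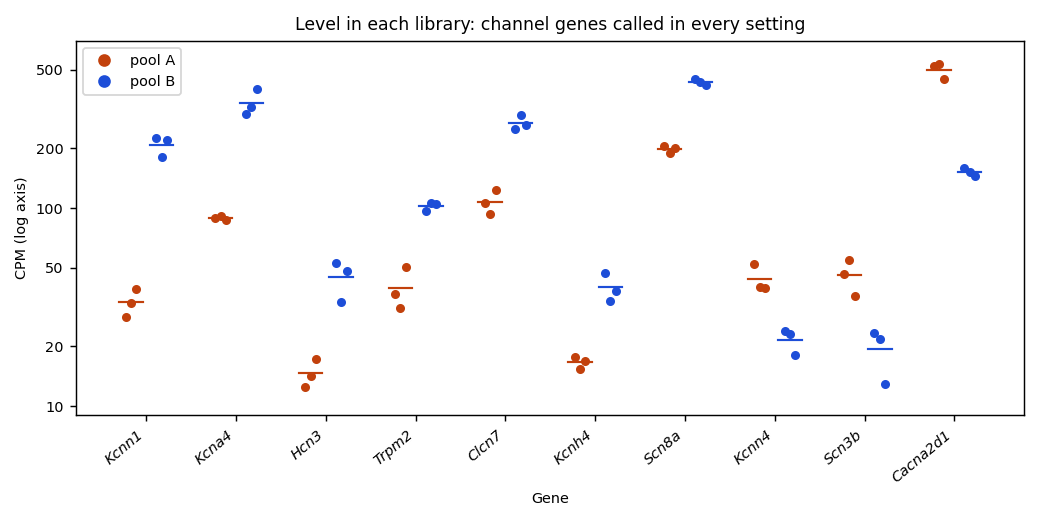
Level in CPM (log axis) of 10 of the 11 channel genes whose call held in all 15 other fits; points are libraries (3 a pool) and lines are pool means. For none of these 10 do the points of the pools overlap, and Cacna2d1, Scn3b and Kcnn4 are the genes whose pool A points lie higher.

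TRP channels are cation channels opened by many chemical and physical signals. Of 21 genes, 6 met the minimum and 1 was called (16.7%, against 40.6% of all genes). Trpm2, opened by ADP-ribose and oxidative stress, had 36.9, 31.2 and 50.2 CPM with pool A and 97.1, 106 and 104 CPM with pool B. No pool A library came near the pool B libraries, and the log2 ratio was -1.24 ± 0.19 (SE, edgeR adjusted p 4.80e-06). Trpm4, a monovalent cation channel opened by calcium, had 24.1, 15.8 and 23.5 CPM with pool A and 16.0, 17.5 and 4.54 CPM with pool B, a log2 ratio of 0.90 ± 0.39 (SE) that did not pass (edgeR adjusted p 0.0671). It passed with limma-voom (0.0234), with upper-quartile factors (0.0408), without a count filter (0.0465), among genes with 10 counts in every library (0.0421) and without pool B replicate 1 (0.0462) or 2 (0.0345). Trpm7, which joins a channel to a kinase, Trpm3, Trpm8 and Trpc2 had log2 ratios between -0.30 and 0.32 and did not pass. Trpc1 had 5 to 13 counts in a library and did not meet the minimum. Trpc4ap, the protein gene that is no channel, had a log2 ratio of 0.22 ± 0.21 (SE) and did not pass.

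CLC proteins move chloride, some as channels of the cell surface and others as chloride-proton exchangers of endosomes and lysosomes. Of 9 genes, 5 met the minimum and 1 was called (20%, against 40.6% of all genes). Clcn7 (ENSRNOG00000016976), the exchanger of lysosomes, had 107, 93.3 and 124 CPM with pool A and 251, 294 and 262 CPM with pool B. The groups lay far apart, with a log2 ratio of -1.17 ± 0.14 (SE, edgeR adjusted p 1.2e-07). Clcn3, of endosomes and secretory vesicles, had 128, 95.3 and 101 CPM with pool A and 115, 86.5 and 88.5 CPM with pool B, with overlapping ranges and a log2 ratio of 0.30 ± 0.17 (SE, edgeR adjusted p 0.173). Clcn5 and Clcn6 had log2 ratios of 0.34 ± 0.63 and 0.42 ± 0.28 (SE) and did not pass.

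Stored calcium leaves the endoplasmic reticulum through inositol trisphosphate and ryanodine receptors. Itpr1 had 266, 279 and 324 CPM with pool A and 264, 262 and 270 CPM with pool B, with ranges that overlapped in CPM but not with the TMM factors. Its log2 ratio was 0.27 ± 0.13 (SE) at an adjusted p of 0.103 by edgeR, and the adjusted p was 0.0221 with upper-quartile factors. Itpr3 had 214, 183 and 200 CPM with pool A and 200, 194 and 197 CPM with pool B, and a log2 ratio of 0.16 ± 0.14 (SE, edgeR adjusted p 0.375). There were 1.25, 1.52 and 1.62 counts of Itpr1 per count of Itpr3 with pool A and 1.32, 1.35 and 1.37 with pool B, with overlapping ranges. Itpr2 had only 5, 7 and 15 counts with pool A and 20, 23 and 38 with pool B. Its log2 ratio was -1.80 ± 0.59 (SE, edgeR adjusted p 0.0166), and the call was lost without pool A replicate 1 (0.0820) or pool B replicate 3 (0.0983). Ryr1 and Ryr2 had log2 ratios of 0.33 ± 0.24 and -0.47 ± 0.52 (SE) and did not pass, and Ryr3 had 1 to 6 counts in a library.

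Pore and auxiliary genes were each called in both directions. Of 61 pore-forming genes tested, 3 were higher in pool A and 16 in pool B, with a median log2 ratio of -0.17. These shares, 4.92% and 26.2%, stand beside 18.6% and 22.0% of all genes, so the pool B share is near the general one. Of 13 auxiliary genes tested, 3 were higher in pool A and 2 in pool B, with a median of 0.10, or shares of 23.1% and 15.4%. The difference between these groups was not tested. By ion, 2 of 34 potassium channel genes were higher in pool A (5.88%) and 8 in pool B (23.5%). Of 15 tested Cacn genes, 3 were higher with each pool (20% each). Of 6 sodium channel genes, 2 were higher in pool B (33.3%) and 1 in pool A (16.7%). The same 18.6% and 22.0% of all genes stand beside these shares. Together the 77 genes held 0.428%, 0.389% and 0.445% of the counts with pool A and 0.537%, 0.544% and 0.523% with pool B.

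The calls were compared with those of neighbouring rows of the table, since overlapping transcripts can share reads. The rows are grouped by chromosome: of 11136 pairs of consecutive rows whose symbols both matched RefSeq's gene table, 99.3% lay on the same chromosome. Order along a chromosome was not checked, so rows close together need not be close in the genome. The 24 called channel genes had 48 nearest tested rows on either side. Of these, 9 were called in the same direction, 7 in the opposite direction and 32 were not called, a called share of 33.3% against 40.6% of all genes. The 27 of them that were directly adjacent rows, had 6 calls in the same direction, 3 in the opposite direction and 18 not called. Beside the adjacent rows given above for Kcnn1, Kcnj4 and Scn8a, Ddx23 next to Cacnb3 was higher with pool A like it, with a log2 ratio of 0.44. Among adjacent rows called in the opposite direction were Dlg5 beside Kcnma1, at -2.33, and Ccdc22 beside Cacna1f, at 1.15. Kdelr3, on the other side of Kcnj4, was at 0.53 and not called. The nearest tested neighbours of Cacna2d1, Sema3c (4 rows away) and Pclo (adjacent), had log2 ratios of -0.15 and -0.16, and those of Scn3b, Zfp202 and Gramd1b, had -0.18 and -0.20, all not called. Libraries were prepared to keep strand, but whether counting used it is not given in the sources used here, so reads of a gene and an antisense partner cannot be told apart.

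**Figure D4:**
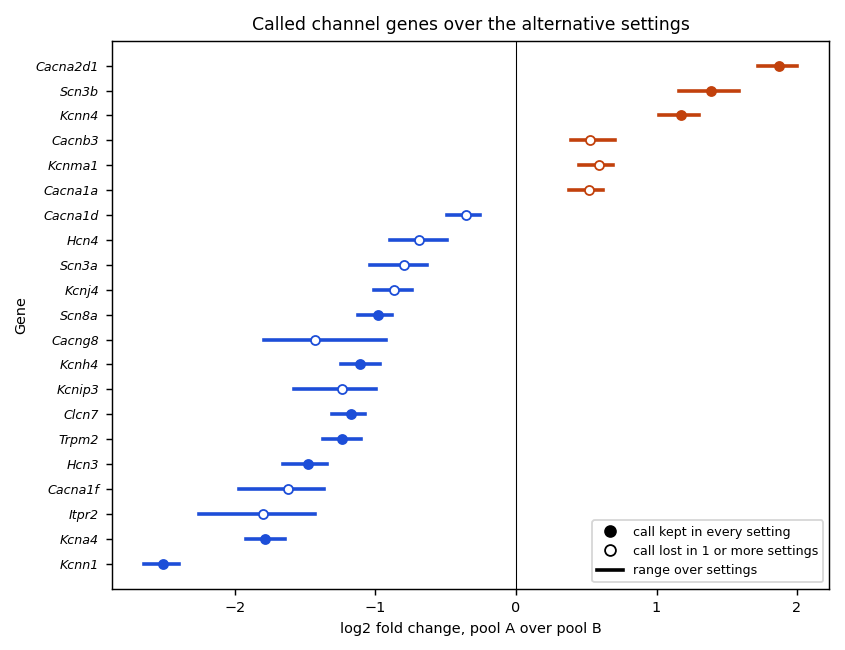
Log2 fold change of pool A over pool B for 21 of the 24 called channel genes; points are the reported values, bars the range over the reported fit and up to 15 others (scaling, filter, test, block and leaving out a library), and filled points mark the 10 calls shown that held in each. No bar crosses 0, and Cacna1d comes closest, at -0.25.

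The membrane genes around these channels were read from 5 lists of 103 genes, of which 73 were tested, 16 higher in pool A and 13 in pool B, with a median log2 ratio of -0.0098. The called share was 39.7%, close to the 40.6% of all genes, and by direction 21.9% and 17.8%, against 18.6% and 22.0%. Among 16 tested genes of calcium entry and stores, 4 were higher with each pool (25% each). Pkd2, a polycystin channel gene, had a log2 ratio of 2.19 ± 0.16 (SE, edgeR adjusted p 1.50e-11), Piezo2, a mechanosensitive channel gene, -1.31 ± 0.13 (4.68e-09), and Micu2, a regulator of the mitochondrial uniporter, -1.78 ± 0.23 (2.68e-07). Among 16 tested pump and exchanger genes, 2 were higher in pool A (12.5%) and 4 in pool B (25%). The sodium-calcium exchanger gene Slc8a1 and the plasma membrane calcium pump genes Atp2b4 and Atp2b1, which clear calcium after a spike, were higher with pool B by log2 ratios of -2.76 ± 0.17, -1.81 ± 0.17 and -1.39 ± 0.13 (SE). Their paralogs Slc8a2, Slc8a3, Atp2b2 and Atp2b3 did not pass, and Slc8b1 was higher with pool A at 1.46 ± 0.48 (SE).

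Among 15 tested ligand-gated channel genes, 5 were higher in pool A (33.3%) and 3 in pool B (20%), against 18.6% and 22.0% of all genes. P2rx2, an ATP-gated channel gene, had a log2 ratio of 2.13 ± 0.42 (SE), the acid-sensing channel gene Asic1 -0.71 ± 0.16 and P2rx7 0.68 ± 0.17. Among 15 tested genes of other anion channels, 3 were higher in pool A (20%) and 1 in pool B (6.67%). By adjusted p the first 3 were Vdac3 at -1.58 ± 0.19, Ttyh3 at 1.31 ± 0.21 and Best1 at 0.90 ± 0.20 (SE), followed by Lrrc8a at 1.09 ± 0.25 (SE). Among 11 tested scaffold and regulator genes, 2 were higher in pool A (18.2%) and 1 in pool B (9.09%). Calm3, which encodes calmodulin, the calcium sensor of SK and many other channels, had 342 ± 33.2 CPM with pool A and 125 ± 20.02 CPM with pool B (SD, n = 3 each), a log2 ratio of 1.61 ± 0.15 (SE, edgeR adjusted p 1.50e-09). Unc80, a partner of Nalcn, had 540 ± 87.0 and 851 ± 45.2 CPM (SD, n = 3 each), a log2 ratio of -0.52 ± 0.13 (SE). Ank3, an anchor of sodium channels, had 0.37 ± 0.14 (SE, edgeR adjusted p 0.0335).

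Of the 98 channel genes by name that did not meet the minimum, 39 had no count in any library, 12 reached 10 counts in 1 library and 10 in 2 libraries. Just outside the minimum lay Trpc1, with 13, 9 and 11 counts in pool A and 9, 5 and 6 in pool B. Just inside lay Cacnb4, with 11, 4 and 16 counts in pool A and 13, 5 and 8 in pool B. Differences for these genes were not detectable at this depth.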

How the data were processed

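The authors deposited counts per gene for 32883 rat genes, whole numbers taken as raw counts. Per the submitters' processing notes STAR and featureCounts were used; their versions, the genome build, the annotation and the use of strand are not given in the sources used here. The table's mean per pool is a signal column the authors computed, equal to the mean of the 3 counts, and was not used. Columns were matched to samples by title.

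CPM use each library's total and no TMM factor. The comparison used edgeR 4.0.16 (R 4.3.3; TMM scaling, filterByExpr by pool, quasi-likelihood test, pool as the only term), with standard errors from the fold change and the F statistic, and two-sided p-values adjusted by the Benjamini-Hochberg method over 11582 genes at a threshold of 0.05. The test was checked on simulated data. Alternatives were DESeq2 1.42.0, limma-voom (limma 3.58.1), other scalings and filters, a test against a 1.5-fold change, a replicate block and leaving out each library. Up to 3 genes per class and direction with the smallest adjusted p, the most counted gene of each class and a list of channels known from pituitary cells were named with full values; other genes named were added after their values were seen. Genes, classes and lists were chosen with earlier results of these data known. Same-numbered libraries deviated together with r of 0.0409, -0.0195 and 0.0200, so numbers were not taken as pairs. Some genes are counted in the totals but not reported here by name, nor drawn in the figures.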

Additional observations from a re-analysis of the deposited data

How the results depend on the processing

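Channel genes higher with pool A numbered 6 and those higher with pool B 18. With total counts alone 3 genes were higher with pool A, and an adjusted p under 0.01 left 3 and 10 genes. A test against a 1.5-fold change, stricter by construction, left 3 and 8. When a library was left out, the numbers ranged from 3 to 6 and from 13 to 14, with fewer libraries in each fit, and the median log2 fold change from -0.22 to -0.060. With the replicate number as a block they were 6 and 17, with a median of -0.13, and the call of Cacng8 was lost. Libraries that share a number showed no common deviation, so that block stands for no known pairing. Under the other scalings, filters and tests the numbers stayed within 1.5 times the reported ones. Of 581 refits of 39 genes named by rule, 514 kept their side of the threshold, 56 lost a call (11 genes), 11 gained one (6 genes) and none changed direction with a call. Cacna1f, Cacng8 and Itpr2 had under 10 counts in at least 1 pool A library, which limits the precision of their ratios.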
